A study of Mus musculus with 6 samples.

Results

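The genes described here are transcription factors, surface markers and signalling proteins that define the haematopoietic stem cell. They were named from knowledge of the field, with earlier results of these data already known. Hox genes and cytokine receptors were left out, and a listed gene was kept when the array annotation gave it a probe set of its own. Of 31 listed genes 30 had such a probe set, out of 22180 genes measured in all, and where a gene had several the brightest over the 6 arrays was used. The remaining gene, Ly6a, which encodes the Sca-1 antigen, is not analysed here. RNA came from mouse bone marrow sorted for LSK cells, which lack lineage antigens, carry Sca-1 and high c-Kit, and comprise stem cells with early multipotent progenitors. One group was WT (3 arrays) and the other Ctcf conditional KO (3 arrays), and each array is labelled as a biological replicate. All mice were male, 8 weeks old and injected with 2 mg of tamoxifen a day for 3 days, so the controls received the drug too, and marrow was taken 24 hours after the last dose. The design text speaks of CreER mice beside the inducible knockout. Whether the WT mice carried the recombinase, which promoter drives it and which exons of Ctcf are removed were not stated in the labels.

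Haematopoietic stem cells keep their identity through transcription factors that bind the same enhancers in combination, among them GATA2, TAL1, LMO2, RUNX1 and ERG, and through factors such as MECOM, HLF, MEIS1 and PRDM16 whose loss exhausts the stem cell pool. On the surface they are told apart from progenitors by proteins such as EPCR (Procr), CD150 (Slamf1), ESAM and TIE2 (Tek), several of which are shared with endothelium. CTCF binds insulators and the anchors of chromatin loops, through which distal enhancers of such genes reach their promoters.

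Ctcf, the targeted gene, read 8.35, 8.59 and 8.73 in WT and 7.58, 7.78 and 7.86 in the knockout on the log2 scale, so the groups did not overlap. Its difference was -0.82 (SE 0.13, limma adjusted p = 0.104), which missed the threshold of 0.05. Kit, whose product was part of the sort gate, read 10.26, 10.65 and 10.22 in WT and 10.13, 10.12 and 10.21 in the knockout. All 3 knockout arrays of Kit lay below WT, as for 5.32% of all genes (difference -0.22, SE 0.13, limma adjusted p = 0.727). The arrays' own medians ran from 5.99 to 6.07. Arrays of sorted cells are bulk samples, in which fewer cells of a type and less RNA per cell cannot be told apart.

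None of the 30 stem cell identity genes passed limma's test with Benjamini-Hochberg adjustment over all genes. Over all genes 16 of 22180 passed, or 0.0721%. The members' differences, knockout minus WT, ran from -0.30 (Emcn) to 0.34 (Gata2) with a median of -0.01, beside a median of 0.02 over all genes, and no member differed by 0.5 or more, as 2.67% of all genes did. The 95% intervals of all 30 lay inside a 2-fold change in either direction, as did those of 97.5% of all genes. The lowest bound was 0.577-fold, for Emcn, and the highest 1.50-fold, for Slamf1. For 22 of the 30 (73.3%) the interval lay within 0.5 on either side of 0, against 69.2% of all genes. For 26 of the 30 the range of a single group was larger than the difference between the group means. The adjusted p-values of the members ran from 0.418 to 0.994 by limma.

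**Figure D1:**
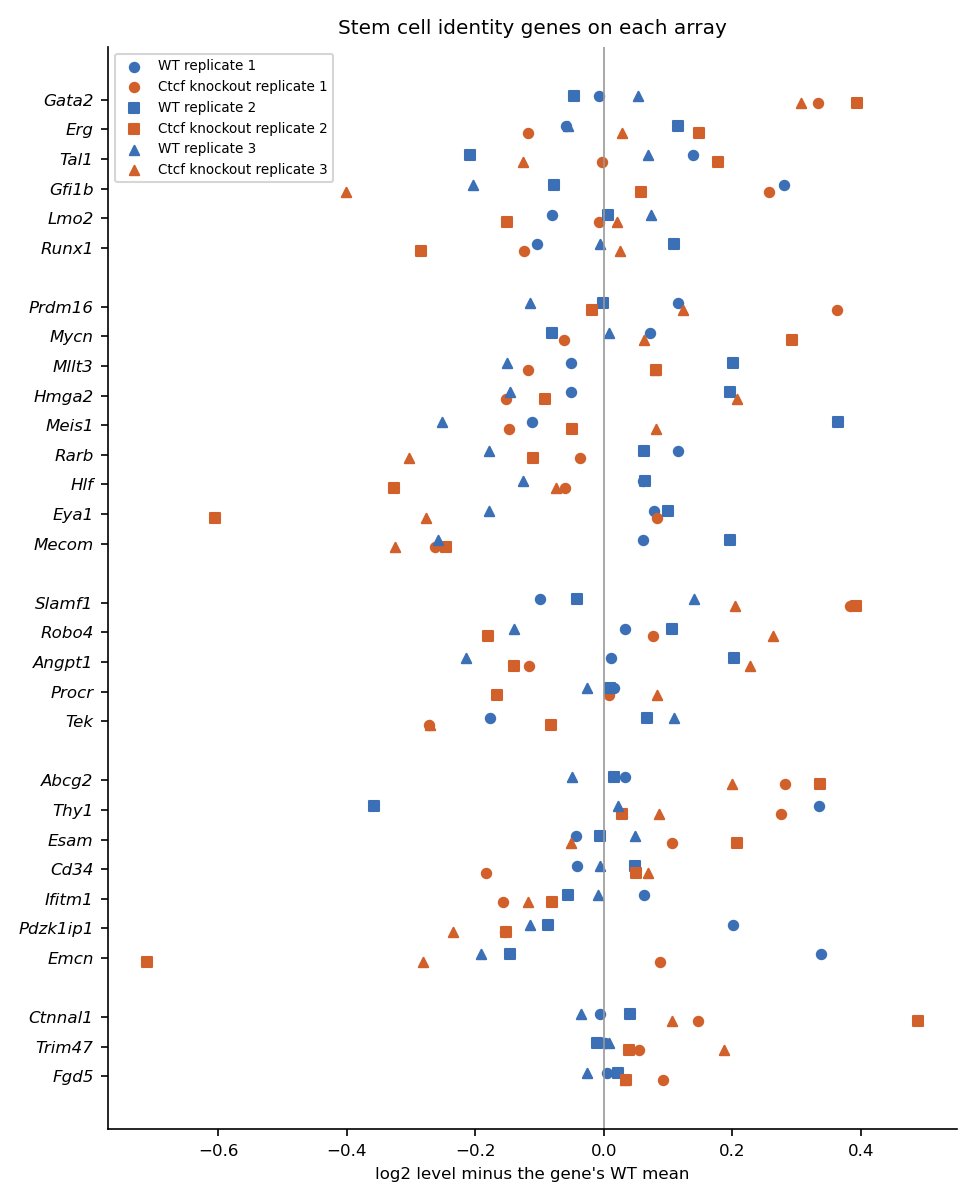
Log2 level of each of the 30 genes on each array, minus that gene's WT mean, with WT in blue, the Ctcf knockout in orange and marker shape for the replicate; genes are grouped by role and ordered by difference. Most genes have interleaved groups. All 3 knockout arrays lie above all 3 WT arrays in Gata2, Slamf1, Abcg2, Ctnnal1, Trim47 and Fgd5, and below them in Pdzk1ip1 and Ifitm1.

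Before adjustment for the number of genes, members with groups apart were found in both directions. With limma's p unadjusted and a threshold of 0.05, 3 of 30 members (10%) were higher, Gata2, Slamf1 and Abcg2, beside 5.03% of all genes, and 0 were lower, beside 3.08%. All 3 knockout arrays lay above all 3 WT arrays for 6 members (20%), against 7.96% of all genes, and below them for 2 members (6.67%), against 5.32%. The 6 were Gata2, Slamf1, Abcg2, Ctnnal1, Trim47 and Fgd5, and the 2 were Pdzk1ip1 and Ifitm1. Groups that do not overlap give an exact two-sided permutation p of 0.1, the smallest that 3 arrays against 3 allow. Of the 30 members 28 were brighter than the median of all genes' means. Of the 11090 genes above that median, 10.8% had knockout arrays above WT and 4.88% below. At an unadjusted limma p under 0.05, 774 of these 11090 were higher and 342 lower. By sign the members divided into 14 positive and 16 negative differences (46.7% positive). All genes had 54.7% positive and the brighter ones 60.4%. The members' split and counts depend on the scale. With each array centred on the median of its brighter genes 9 members were positive, and 40.1% of all genes. Members at an unadjusted limma p under 0.05 were then 2 higher and 2 lower, beside 2.97% and 5.10% of all genes, and those with groups apart 4 higher and 4 lower, beside 4.75% and 9.06%.

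**Figure D2:**
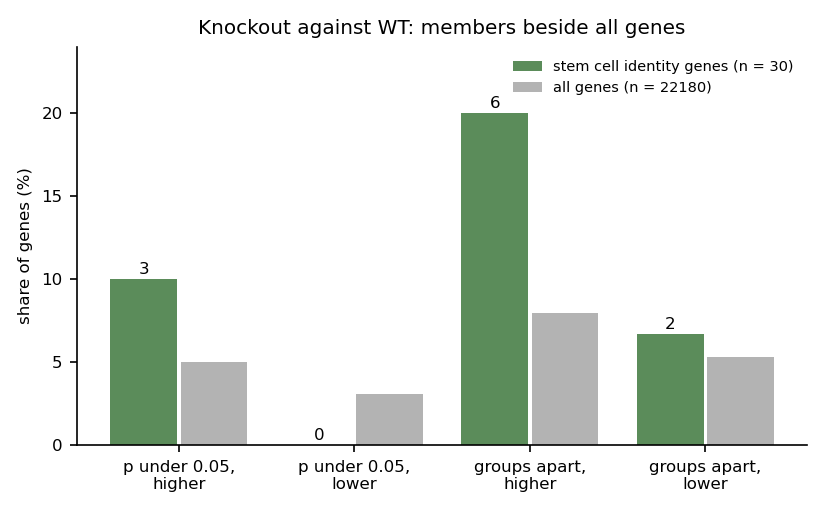
Bars give the share of genes, in percent from 0, that met each of 4 conditions in the comparison of knockout and WT: a limma unadjusted p under 0.05 or groups without overlap, each higher or lower in the knockout. Green bars are the 30 stem cell identity genes with their counts above, and grey bars all 22180 genes. The largest member share is 20% (6 genes with knockout arrays above WT), against 7.96% of all genes.

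The transcription factors that act together at stem cell enhancers were represented by 6 members, of which 1, Gata2, had groups that did not overlap. Over all genes 7.96% had knockout arrays above WT and 5.32% below. Gata2, a zinc finger factor needed for the formation and survival of stem cells and also active in mast cells, read 8.95, 8.91 and 9.01 in WT and 9.29, 9.35 and 9.27 in the knockout. All knockout arrays were higher, and the gap between the groups was wider than the range within either. Its difference was 0.34 (SE 0.10, interval 0.12 to 0.57, limma adjusted p = 0.418), or 1.27-fold. With any 1 array left out it stayed between 0.32 and 0.37.

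RefSeq gives Gata2 a pair of promoter windows, and they are shown because Gata2 had the smallest p among the members. The window of Slamf1, the member next in rank, and 1 of the 2 windows of Mecom, the member with the smallest p among those lower in the knockout, follow for comparison. The other Mecom window, chr3:30013155-30013454 on the minus strand, is not printed and holds 0 words of either motif marked here. Each window holds 250 bases before the start and 50 after it, 5′ to 3′ on the gene's strand, in build GRCm38.p6. Capitals mark words on either strand. Those of the CTCF core are AGGGGGC and its variant AGGTGGC as well as AGAGGGC and its variant AGATGGC, and those of the GATA motif are AGATAA and the variant TGATAA. The windows are chr6:88193641-88193940 and chr6:88198414-88198713 for Gata2, both on the plus strand, chr1:171766882-171767181 on the plus strand for Slamf1 and chr3:30509710-30510009 on the minus strand for Mecom.
Gata2, upstream start: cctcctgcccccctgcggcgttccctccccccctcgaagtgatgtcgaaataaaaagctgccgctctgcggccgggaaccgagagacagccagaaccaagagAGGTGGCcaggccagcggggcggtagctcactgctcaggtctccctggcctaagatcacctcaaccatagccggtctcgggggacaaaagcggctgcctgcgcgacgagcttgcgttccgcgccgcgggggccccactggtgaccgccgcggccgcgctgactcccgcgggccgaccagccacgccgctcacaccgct
Gata2, downstream start: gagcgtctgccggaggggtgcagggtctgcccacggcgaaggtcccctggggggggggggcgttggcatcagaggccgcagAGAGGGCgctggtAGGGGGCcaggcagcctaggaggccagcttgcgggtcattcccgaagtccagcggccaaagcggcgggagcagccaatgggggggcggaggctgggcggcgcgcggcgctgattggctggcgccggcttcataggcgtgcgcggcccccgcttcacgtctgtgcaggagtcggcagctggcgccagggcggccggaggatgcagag
Slamf1: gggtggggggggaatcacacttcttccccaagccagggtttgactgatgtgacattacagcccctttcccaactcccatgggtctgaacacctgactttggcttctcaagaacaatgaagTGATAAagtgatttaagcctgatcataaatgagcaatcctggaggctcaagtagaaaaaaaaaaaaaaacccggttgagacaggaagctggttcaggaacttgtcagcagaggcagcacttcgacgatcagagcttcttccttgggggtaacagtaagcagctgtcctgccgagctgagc
Mecom: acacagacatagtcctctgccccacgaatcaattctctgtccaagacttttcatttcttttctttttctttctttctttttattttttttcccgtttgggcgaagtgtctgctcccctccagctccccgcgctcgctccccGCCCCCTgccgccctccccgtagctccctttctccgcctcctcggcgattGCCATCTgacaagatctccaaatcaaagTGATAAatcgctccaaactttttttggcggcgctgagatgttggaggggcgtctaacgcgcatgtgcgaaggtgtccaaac
The upstream Gata2 window holds 1 CTCF core word and the downstream one 2, all on the gene's strand. The Slamf1 window holds 1 GATA word and no CTCF core word. The printed Mecom window holds 2 CTCF core words on the opposite strand, which therefore appear as their reverse complements, and 1 GATA word, and no capitals of one motif overlap the other. Such words are common. Over the 34 windows of the 25 members in the promoter table, 9 windows (26.5%) hold a CTCF core word, against 27.6% of 32851 windows of all genes, and 7 (20.6%) hold a GATA word, against 18.6%. The RUNX word TGTGGT is in 3 member windows (8.82%) and 16.8% of all, and the ETS word CGGAAG in 3 (8.82%) and 16.9%. Both Gata2 windows are rich in G and C (69.3% and 73.7%), where the median window of all genes has 52.7%. A match of letters describes the window and shows no binding. The members not in the table are Angpt1, Esam, Eya1, Lmo2 and Thy1.

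The partners of Gata2 at those enhancers had overlapping groups. Runx1, the factor that founds definitive blood formation, read 9.56, 9.77 and 9.65 in WT and 9.54, 9.38 and 9.69 in the knockout, with the lowest value in knockout replicate 2 (difference -0.13, interval -0.40 to 0.15). Tal1, a basic helix-loop-helix factor that pairs with LMO2, read 7.97, 7.63 and 7.90 in WT and 7.83, 8.01 and 7.71 in the knockout, and the difference was 0.02 (interval -0.29 to 0.32). Erg, an ETS factor, read 9.47, 9.65 and 9.47 in WT and 9.41, 9.68 and 9.56 in the knockout. Its difference of 0.02 was small beside the interval of -0.24 to 0.28. Lmo2, a bridging protein of the complex, read 9.39, 9.47 and 9.54 in WT and 9.46, 9.32 and 9.49 in the knockout (difference -0.05, interval -0.29 to 0.20). Gfi1b, a repressor that restrains stem cell cycling and drives erythroid and megakaryocytic fates, spread most of these, with 9.35, 8.99 and 8.86 in WT and 9.33, 9.13 and 8.67 in the knockout. WT replicate 1 and knockout replicate 1 were its highest arrays, and the difference of -0.03 (interval -0.46 to 0.41) moved from -0.17 to 0.16 when 1 array was left out.

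The 9 regulators of self-renewal had no member with groups apart, beside 7.96% of all genes higher and 5.32% lower. Of the 9, 6 had a negative difference, beside 10058 of all 22180 genes. Mecom, which encodes EVI1, a factor stem cells require, read 8.21, 8.34 and 7.89 in WT and 7.88, 7.90 and 7.82 in the knockout. WT replicates 1 and 2 were above all knockout arrays, and WT replicate 3 lay among them. Its difference was -0.28 (SE 0.13, interval -0.58 to 0.03, limma adjusted p = 0.643), or 0.83-fold. A dimmer probe set of Mecom differed by a like amount, -0.27, from 6.78 to 6.51. The groups of Mecom came apart, with the knockout lower, after a further quantile normalization or centring on the brighter genes. They did so too without WT replicate 3 or knockout replicate 2. Eya1, a transcriptional coactivator and phosphatase, read 10.57, 10.59 and 10.31 in WT and 10.57, 9.88 and 10.21 in the knockout. Knockout replicate 2 was the lowest of the 6 and knockout replicate 1 stood among the WT arrays (difference -0.27, interval -0.67 to 0.13). The difference of Eya1 was -0.10 without knockout replicate 2, and -0.44 with groups apart without knockout replicate 1.

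Hlf, a PAR bZIP factor that marks stem cells, read 10.46, 10.47 and 10.28 in WT and 10.34, 10.08 and 10.33 in the knockout (difference -0.15, interval -0.43 to 0.12). Meis1, a homeodomain cofactor of Hox proteins, was highest in WT replicate 2, with 10.40, 10.88 and 10.26 in WT and 10.36, 10.46 and 10.59 in the knockout. Its difference of -0.04 ran from -0.16 to 0.14 with 1 array left out. Prdm16, a zinc finger factor related to MECOM, read 7.18, 7.07 and 6.95 in WT and 7.43, 7.05 and 7.19 in the knockout, and knockout replicate 1 gave the highest value (difference 0.16, interval -0.14 to 0.45). A dimmer probe set of Prdm16 differed by 0.14. Mllt3, a chromatin reader that sustains stem cell self-renewal, differed by 0.02 (interval -0.27 to 0.30). Mycn, the MYC paralogue used by stem cells, differed by 0.10 (interval -0.18 to 0.38) and Hmga2, a chromatin protein best known from fetal stem cells, by -0.01 (interval -0.33 to 0.31). Rarb, a retinoic acid receptor, differed by -0.15 (interval -0.44 to 0.14) and was dim, with its mean under 6.29, the median of all genes' means.

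**Figure D3:**
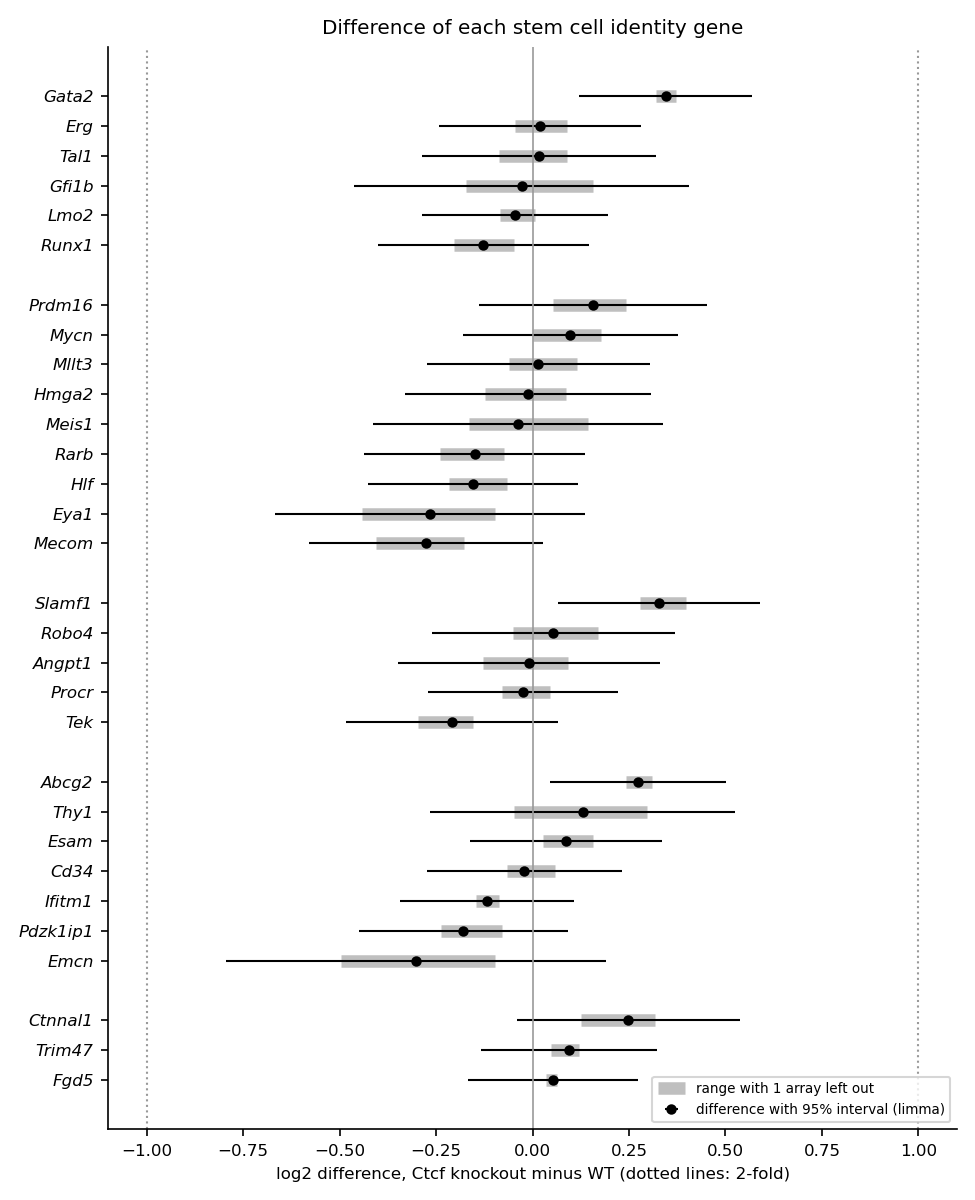
Log2 difference, knockout minus WT, of each of the 30 genes (points) with its 95% interval from limma (lines) and the range of the difference when each array is left out in turn (grey bars). All intervals lie between the dotted lines at a 2-fold change, and those of Gata2, Slamf1 and Abcg2 do not reach 0.

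Among the receptors and their ligand, Slamf1 was the 1 member of 5 with groups apart, beside 7.96% of all genes higher and 5.32% lower. Slamf1 encodes CD150, the SLAM receptor by which stem cells are sorted, and it read 6.41, 6.47 and 6.65 in WT and 6.89, 6.90 and 6.71 in the knockout. All knockout arrays were higher, with knockout replicate 3 nearest to WT replicate 3. The difference was 0.33 (SE 0.11, interval 0.07 to 0.59, limma adjusted p = 0.532), or 1.25-fold. It had an unadjusted limma p under 0.05 in 2 of the 6 fits with 1 array left out, without WT replicate 3 and without knockout replicate 3. Procr, the protein C receptor that marks the most potent stem cells, read 7.42, 7.41 and 7.38 in WT and 7.41, 7.24 and 7.48 in the knockout. The knockout arrays lay on both sides of the WT ones (difference -0.03, interval -0.27 to 0.22).

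The angiopoietin pathway, in which the ligand ANGPT1 activates TIE2 and holds stem cells quiescent in the niche, was represented by both partners. Tek, which encodes TIE2, read 6.37, 6.62 and 6.66 in WT and 6.28, 6.47 and 6.28 in the knockout, and WT replicate 1 lay among the knockout arrays (difference -0.21, interval -0.48 to 0.07). The Tek groups came apart without WT replicate 1, where the difference was -0.30, without knockout replicate 2, and after centring on the brighter genes. Angpt1 read 10.27, 10.46 and 10.05 in WT and 10.14, 10.12 and 10.49 in the knockout, with a difference of -0.01 (interval -0.35 to 0.33). Its dimmer probe set differed by -0.13. Robo4, a guidance receptor that anchors stem cells in the niche, read 7.32, 7.40 and 7.15 in WT and 7.37, 7.11 and 7.55 in the knockout, with the knockout arrays on both sides of WT (difference 0.05, interval -0.26 to 0.37).

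Of 7 other surface and membrane proteins Abcg2 had knockout arrays above WT, and Pdzk1ip1 and Ifitm1 had them below, beside 7.96% and 5.32% of all genes. Abcg2, the efflux pump behind the side population of stem cells and also present in erythroid cells, read 7.25, 7.23 and 7.17 in WT and 7.50, 7.55 and 7.41 in the knockout. The lowest knockout array was above the highest WT array. Its difference was 0.27 (SE 0.10, interval 0.04 to 0.50, limma adjusted p = 0.552), or 1.21-fold, and its unadjusted limma p was under 0.05 in 3 of the 6 fits with 1 array left out but not after centring on the brighter genes. Pdzk1ip1, a small membrane protein also called MAP17 whose locus adjoins Tal1, read 8.14, 7.85 and 7.82 in WT and 7.78, 7.78 and 7.70 in the knockout. WT replicate 1 was well above the rest, and the groups were otherwise nearly touching (difference -0.18, interval -0.45 to 0.09). Without WT replicate 1 the difference of Pdzk1ip1 was -0.08. Ifitm1, an interferon-induced membrane protein, read 5.85, 5.73 and 5.78 in WT and 5.63, 5.70 and 5.67 in the knockout, dimmer than the median of all genes' means (difference -0.12, interval -0.34 to 0.11).

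Cd34, the sialomucin that long-term stem cells of adult mice lack and their progeny carry, read 11.93, 12.02 and 11.96 in WT and 11.78, 12.02 and 12.04 in the knockout (difference -0.02, interval -0.27 to 0.23). Emcn, endomucin, a sialoglycoprotein of stem cells and endothelium, had the widest spread of the members. It read 10.50, 10.02 and 9.97 in WT and 10.25, 9.45 and 9.88 in the knockout. WT replicate 1 was the highest array and knockout replicate 2 the lowest, and the difference of -0.30 (SE 0.22, interval -0.79 to 0.19) ranged from -0.50 to -0.10 with 1 array left out. Thy1, a GPI-anchored marker carried at low density by stem cells, read 7.82, 7.12 and 7.50 in WT and 7.76, 7.51 and 7.57 in the knockout. WT replicates 1 and 2 were its highest and lowest arrays (difference 0.13, interval -0.27 to 0.53). Esam, a junctional adhesion molecule, read 6.92, 6.96 and 7.02 in WT and 7.07, 7.17 and 6.92 in the knockout, and knockout replicate 3 was the lowest of the 6 arrays and the other knockout arrays the highest (difference 0.09, interval -0.16 to 0.34).

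The 3 intracellular signalling and adaptor genes all had knockout arrays above WT, by small amounts and with intervals that held 0. Such groups were found for 7.96% of all genes and 10.8% of those brighter than the median. Ctnnal1, an alpha-catenin-like protein, read 6.42, 6.47 and 6.39 in WT and 6.57, 6.91 and 6.53 in the knockout. Knockout replicate 2 stood apart from the other 5 arrays, and the difference of 0.25 (interval -0.04 to 0.54) was 0.13 without it. Trim47, a RING finger ubiquitin ligase, read 6.89, 6.88 and 6.90 in WT and 6.94, 6.93 and 7.08 in the knockout (difference 0.09, interval -0.13 to 0.32). A further probe set shared by Trim47 and its neighbour Trim65 differed by -0.03. Fgd5, a guanine nucleotide exchange factor whose locus is used for stem cell reporters, read 6.86, 6.88 and 6.83 in WT and 6.95, 6.89 and 6.89 in the knockout (difference 0.05, interval -0.17 to 0.27). With centring on the brighter genes the groups of Trim47 and Fgd5 overlapped, and the difference of Fgd5 turned to -0.00287.

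**Figure D4:**
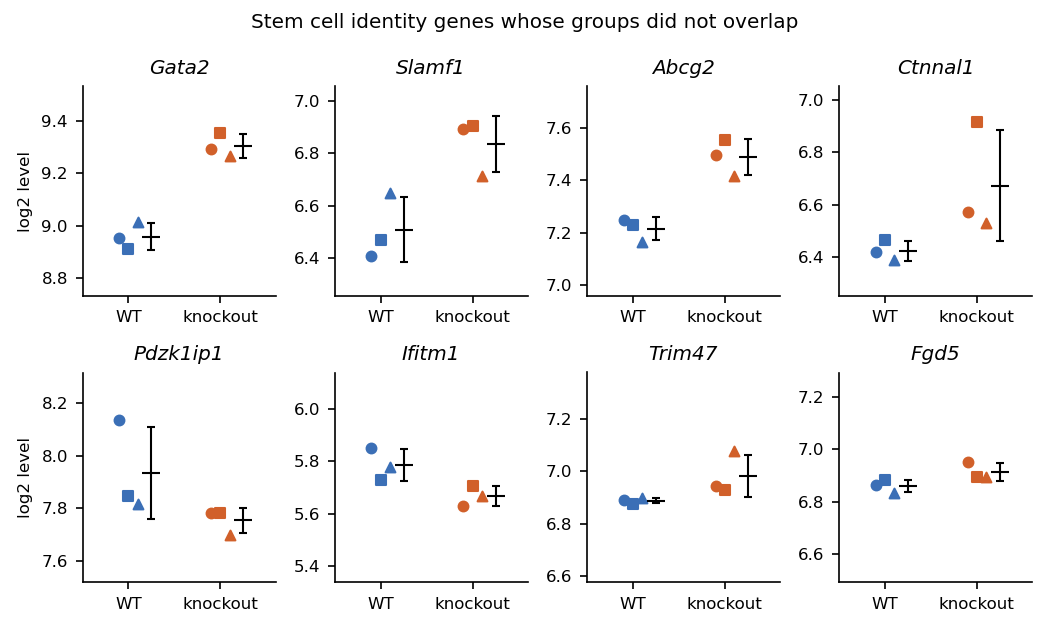
Log2 level on each array of the 8 genes whose groups did not overlap, ordered by limma p, with WT in blue, the knockout in orange and marker shape for the replicate; black bars are mean and SD (n = 3). All panels span 0.8 on the log2 axis. Gata2 and Abcg2 have tight groups with a clear gap, and in Ctnnal1 and Pdzk1ip1 a single array carries much of the difference.

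No array set all members high or all low. Their median deviation from each gene's mean lay between -0.05 and 0.02 on the 6 arrays. Knockout replicate 2 held the highest value of 8 members and the lowest of 7, and WT replicate 3 the highest of 2 and the lowest of 7 of the 30. Gata2, Slamf1, Abcg2, Ctnnal1, Esam, Erg, Mycn and Tal1 were highest on knockout replicate 2, and Hlf, Procr, Robo4, Runx1, Lmo2, Eya1 and Emcn were lowest there. Over all genes knockout replicate 2 held the highest value for 20.4% and the lowest for 18.2%, and WT replicate 3 the highest for 12.1% and the lowest for 12%. WT replicate 2 held the highest value of Mecom, Hlf, Meis1, Mllt3, Runx1 and Eya1. The median pooled SD of the members was 0.14, against 0.16 over all genes.

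Partners of the members were described from lists drawn up with the members. None of 15 partner transcription factors passed limma's test with adjustment over all genes, and 6 of 15 differences were positive (median -0.01). Of the 15, 1 was higher at an unadjusted limma p under 0.05 and 0 lower, beside 5.03% and 3.08% of all genes. Pbx3, a TALE homeodomain partner of MEIS1, read 6.79, 6.79 and 6.78 in WT and 7.69, 7.10 and 6.97 in the knockout (difference 0.46, SE 0.18, limma adjusted p = 0.562). Knockout replicate 1 was far above the others. Ldb1, the protein that links TAL1 complexes into enhancer loops, differed by -0.18 (SE 0.12) with overlapping groups.

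Among 14 ligand and receptor partners 0 passed adjustment by limma, and the median difference was 0.01. At an unadjusted limma p under 0.05, 2 were higher and 0 lower, beside 5.03% and 3.08% of all genes. Tie1, the co-receptor of TIE2, read 7.34, 7.53 and 7.44 in WT and 7.90, 7.78 and 7.72 in the knockout, so its groups were apart with the knockout higher where those of Tek overlapped. The difference of Tie1 was 0.36 (SE 0.11, limma adjusted p = 0.443). F2r, the thrombin receptor PAR1 through which EPCR signals, read 8.85, 8.64 and 8.82 in WT and 9.22, 9.38 and 8.99 in the knockout (difference 0.43, SE 0.13, limma adjusted p = 0.446).

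Of 23 further stem cell genes 0 passed by limma, and the median was 0.03. Before adjustment 3 were higher and 1 lower at a limma p under 0.05, beside 5.03% and 3.08% of all genes. Krt18, a keratin, differed by 0.34 (SE 0.11) and Gpr171, a receptor, by -0.45 (SE 0.14), each with groups that did not overlap.

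The genes of multipotent progenitors, which share the sort gate with stem cells, had a negative difference for 9 of 11 (median -0.19). Over all genes 10058 of 22180 differences were negative. Of the 11 progenitor genes 1 passed over all genes by limma. That gene was Il7r, the interleukin-7 receptor chain, which fell from 9.93, 10.27 and 9.49 in WT to 7.52, 7.60 and 7.74 in the knockout (limma adjusted p = 0.00672). Dntt, a DNA polymerase of antigen receptor assembly, differed by -0.57 (SE 0.19), and Flt3, the receptor kinase that stem cells lack and lymphoid-primed progenitors carry, by -0.42 (SE 0.16, limma adjusted p = 0.563). Whether the balance of stem cells and progenitors differed between the sorted samples was not tested.

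Markers of other cell types that share members' expression were read on the same arrays. RMA values have no zero and no detection call, so none of the markers could be called absent. Of 15 endothelial markers, relevant to Tek, Esam, Robo4, Emcn and Erg, 6 were brighter than the median of all genes' means. Among these were Eng, Pecam1, Egfl7 and Tie1 (WT means of 10.10, 9.67, 7.79 and 7.44). Cdh5 and Kdr were dimmer than that median (WT means of 6.03 and 5.81). The median endothelial difference was -0.02, with array medians of -0.04 to 0.01 in WT and -0.08 to 0.06 in the knockout. Egfl7, which like Tie1 had groups apart, differed by 0.37 (SE 0.12, limma adjusted p = 0.508), and Stab2, whose groups were apart with the knockout lower, by -0.32 (SE 0.11, limma adjusted p = 0.544). The part of endothelial cells in the members' levels was not tested.

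Of 9 mast cell and basophil markers, relevant to Gata2 and Slamf1, 7 were positive (median 0.38), with array medians of -0.27 to -0.02 in WT and -0.16 to 0.54 in the knockout. Hdc passed over all genes by limma (2.32, adjusted p = 0.0309), and Mcpt8 differed by 1.11 (adjusted p = 0.0708). Of 9 erythroid markers, relevant to Abcg2 and Gfi1b, 5 were positive (median 0.08), with array medians of -0.18 to 0.21 in WT and -0.03 to 0.17 in the knockout, and Car2 differed by 0.33 and Tfrc by -0.18. Of 9 megakaryocyte markers 6 were positive (median 0.13), with array medians of -0.14 to 0.06 in WT and -0.10 to 0.11 in the knockout, and Selp differed by 0.73 and Gp6 by -0.46. The part of these cells in the levels of Gata2, Slamf1 and Abcg2 was not tested.

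The remaining lists hold genes of other states and lineages. All 19 G2/M genes were positive (median 0.55), and 0 passed adjustment by limma. The array medians of these genes overlapped, with -0.17, -0.82 and 0.20 in WT and 0.40, 0.46 and 0.03 in the knockout. Mki67 differed by 0.63 (SE 0.21) and Ccna2 by 0.76 (SE 0.26), and these were the 2 of 19 with groups apart. The part of cell cycle in the members' levels was not tested. All 13 B cell and plasma cell markers were negative (median -0.67), and 0 passed adjustment by limma. Their array medians overlapped, with 0.77, 0.51 and -0.22 in WT and -0.03, -0.05 and -0.62 in the knockout. Prdm1 differed by -0.62 with overlapping groups, and Sdc1 by -0.44 with groups apart. Of 13 neutrophil and myeloid progenitor markers 6 were positive (median -0.32), and 0 passed adjustment by limma. The azurophil granule genes Elane and Prtn3 differed by 1.21 (SE 0.19) and 0.71 (SE 0.13). The later granule genes Ngp, Camp and Ltf differed by -2.44 (SE 0.52), -1.46 (SE 0.48) and -1.04 (SE 0.43). S100a8 and Lcn2 differed by -0.52 each (SE 0.49 and 0.53). Groups of Camp, Ltf, S100a8 and Lcn2 overlapped, and WT replicate 2 lay among the knockout arrays for Camp and Ltf. At an unadjusted limma p under 0.05, 6 of the 13 markers were higher and 4 lower, beside 5.03% and 3.08% of all genes. Of 11 T cell and NK cell markers, among them Thy1 itself, 4 were positive, with Nkg7 at 0.68 and Cd3e at -0.23. Of 11 stromal markers 6 were positive, with Pdgfrb at 0.37 and Col3a1 at -0.21.

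**Figure D5:**
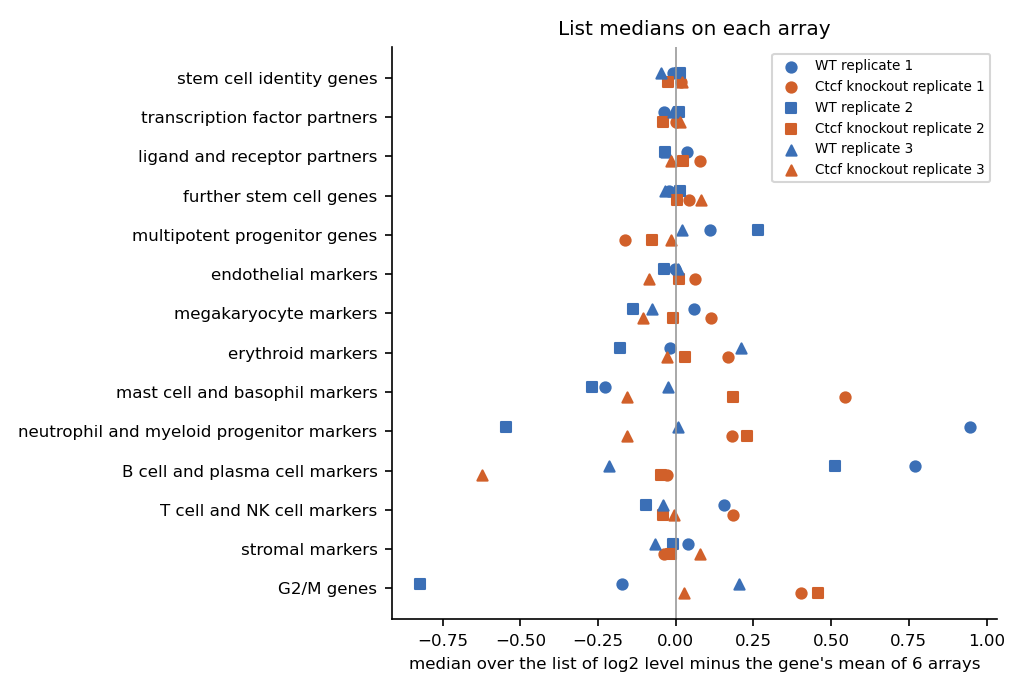
Median over each gene list of the log2 level minus the gene's mean of the 6 arrays, 1 point per array, with WT in blue, the knockout in orange and marker shape for the replicate. The stem cell identity genes stay between -0.05 and 0.02, and the G2/M genes spread from -0.82 to 0.46.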

How the data were processed

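The deposited values are log2 probe set levels of Affymetrix Mouse Gene 2.0 ST arrays. The submitters' processing notes name RMA and the R package oligo, without versions. Such values carry background correction, quantile normalization and a summary over probes. Differences of dim probe sets can be compressed in them. The build and annotation release of the arrays are not stated in the labels.

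Of 41345 probe sets GEO's platform annotation gave 1 symbol to 23521, several to 1814 and none here to 16010. For each of 22180 genes the probe set brightest on average over 6 arrays was kept, with no filter on low values. Groups were compared with limma 3.58.1 (lmFit and eBayes) in R 4.3.3 over all genes, knockout minus WT, with genes called below 0.05 after Benjamini-Hochberg adjustment. Intervals are 95% intervals of the moderated fit. The script was checked by a self-test with known answers. Precision is limited by 3 arrays per group.

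Members and lists were chosen with earlier results of these data known. Every member is named, with Ctcf, Kit and Flt3, and from each further list the genes that passed and the 2 with the smallest p. Cdh5, Kdr, Pecam1, Eng, Stab2, Ngp, Camp, Ltf, S100a8, Lcn2 and the neighbouring genes of the closing section were chosen after their values were seen. Of 30 members 25 were found in RefSeq's promoter table (GRCm38.p6). Alternatives were trend and robust moderation, array weights, brighter genes only, a further quantile normalization, centring on brighter genes, averaging a gene's probe sets, a replicate block, each array left out and a threshold of 0.1.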

Additional observations from a re-analysis of the deposited data

How the results depend on the processing

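No member passed limma's adjusted test under any alternative, a threshold of 0.1 included; the lowest adjusted p of a member was 0.268 (Gata2). Array weights moved the members' median difference to 0.0394. Among the brighter genes 1 member had knockout arrays below WT (4.88% of those genes) and 6 above (10.8%), with Ifitm1 and Rarb no longer tested. A further quantile normalization gave 1 member lower at an unadjusted p under 0.05 (Mecom; 2.71% of all genes). Centring on the brighter genes gave 2 such members (Mecom and Tek; 5.10% of all genes) and 2 higher (2.97%), 4 with knockout arrays below WT (9.06%) and 4 above (4.75%), 9 positive differences and a median of -0.0669. With 1 array left out the members called stayed at 0. Those higher at an unadjusted p under 0.05 ranged from 1 to 3, beside 3.26% to 5.77% of all genes. Those lower ranged from 0 to 2, beside 2.28% to 3.26%. Groups apart ranged from 6 to 7 higher and from 2 to 5 lower, beside 11.6% to 15.3% and 8.76% to 10.8% of all genes, since 5 arrays separate more easily than 6. Positive differences ranged from 11 to 18, beside 53.2% to 55% of all genes, and the members' median from -0.0589 to 0.0379. The count of 3 higher fell to 1, Gata2, without knockout replicate 1 or knockout replicate 2. Of the 30 members 17 kept their sign under every alternative, among them Gata2, Slamf1, Abcg2 and Mecom, and 13 did not.

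Same-numbered arrays of WT and knockout had correlations of deviations of 0.47, 0.03 and -0.25, so the numbers were not taken to pair them. With the replicate block 0 members were called, and 3 were higher and 0 lower at an unadjusted p under 0.05 (4.93% and 3.39% of all genes). Knockout arrays lay above WT for 6 members and below for 2 (7.96% and 5.32% of all genes). The members had 14 positive differences (54.7% of all genes) and a median of -0.01. The block gave 7 called genes in all, trend and robust moderation 25, and leaving out 1 array 0 to 8, against 16.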

Other observations

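CTCF limits how far an enhancer reaches, so the protein-coding genes on either side of each member in RefSeq gene order were read as well. There were 58 such neighbours that are no members themselves, of which 42 were higher than 0 (54.7% of all genes were), their median being 0.06 against 0.02 over all genes. None passed limma's adjusted test, 4 were higher at an unadjusted p under 0.05 and 0 lower, beside 5.03% and 3.08% of all genes. Knockout arrays lay above WT for 5 and below for 0, beside 7.96% and 5.32% of all genes. The 4 were Stil, Ddx1, Mrpl38 and Ifitm2. Stil, a centriole duplication gene that precedes Tal1, differed by 0.62 (SE 0.23), with overlapping groups, while Tal1 differed by 0.02 and Pdzk1ip1, which follows Tal1, by -0.18. Ddx1, an RNA helicase gene beside Mycn, differed by 0.40 (SE 0.15), and Mycn by 0.10. Mrpl38, a mitochondrial ribosomal protein gene beside Trim47, differed by 0.34 (SE 0.13), and Trim47 by 0.09. Ifitm2, beside Ifitm1, differed by 0.56 (SE 0.14) with groups apart, and Ifitm1 and Ifitm3 by -0.12 and 0.02; related copies of this family can share probes.

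The neighbours of Gata2, Slamf1 and Abcg2 had overlapping groups. Rpn1 and Eefsec, on either side of Gata2, differed by 0.24 (SE 0.16) and 0.12 (SE 0.11). Cd48 and Cd84, the SLAM family genes on either side of Slamf1, differed by 0.01 (SE 0.17) and -0.22 (SE 0.17). Herc3 and Vmn1r31, on either side of Abcg2, differed by 0.14 (SE 0.13) and 0.15 (SE 0.14). Whether members and neighbours differed from each other was not tested. In a probe set shared by Cd34 and the overlapping model Gm16897 the difference was -0.24.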
